A study of Triticum aestivum with 48 samples.

Results

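Roots of the wheat genotype Chotilarma (CL) were compared between low and control nitrogen. Bread wheat (Triticum aestivum) seedlings were raised for 15 days in vermiculite and perlite and fed a modified nitrogen-free medium whose nitrogen source was calcium nitrate. The control groups received 8 mM calcium nitrate and the groups labelled stressed received 0.08 mM. Members were the 6 CL arrays titled root, 3 stressed and 3 control, among 48 arrays of 16 groups in the whole series. The other root groups, used only where CL is set against them, were HD2967, K9107 and K307 at the same age and supplies, with 18 arrays. The 6 CL shoot arrays came from the same genotype, age and supplies. All arrays were Affymetrix Wheat Genome Arrays, on which a probe set reads 1 transcript or a group of similar transcripts. Each genotype had 3 sets of pots with 5 seeds to a pot per the labels, which do not say whether replicates came from separate pots. The p-values therefore measure the spread between these arrays, which may be technical.

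Roots take up nitrate through membrane transporters, reduce it to ammonium and build it into amino acids, or send it on to the shoot. A sustained shortage of nitrate is known to change root growth, carbon use and the balance of new tissue between root and shoot. Growth of new root tissue depends on dividing cells, which make core histones, the proteins that DNA is wound on, mainly while DNA is being copied. None of the 102 genes that carried an informative name on this array was a nitrate transporter, a nitrate reductase or an enzyme of ammonium assimilation, so the classical nitrogen pathway is not described here.

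In CL roots on low nitrogen, 7 of 18 core histone probe sets passed the test as lower, all of them of the genes wcH2A-9 and wcH2B-8. Higher were the probe set of WZF1, that of FKBP70 and 1 of 3 of UBC1. None of these 10 passed when the spread was taken from the CL arrays alone. WZF1 is a zinc finger protein reported to interact with a promoter element of wheat histone genes. FKBP70 belongs to the FK506-binding proteins, which speed the turning of proline bonds during protein folding. UBC1 is a ubiquitin-conjugating enzyme, which passes ubiquitin on to proteins. Of 61179 probe sets tested, 1246 differed at an adjusted p under 0.05 (limma on 24 root arrays, Benjamini-Hochberg adjustment), which is 2.04% of them, with 770 higher and 476 lower under low nitrogen. A probe set past that threshold is called here. Bulk tissue was measured, so fewer cells of a type and less RNA per cell cannot be told apart.

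The number of calls differed between fits that took their spread from different arrays. The limma fit shared its residual variance over 4 genotypes and had 14 residual degrees of freedom. It held a fixed term for sets of arrays that were inferred from gaps between array medians. Without that term the same 24 arrays gave 109 calls, 89 higher and 20 lower. Among the 11802 probe sets with a mean of at least 3 over the CL root arrays, the median residual SD was 0.414 in the 6 CL root arrays alone and 0.289 in the fit of 24 arrays. The shared estimate was thus smaller than the CL roots' own spread in the range that held 964 of the 1246 calls. Below a mean of 3 the 2 medians were 0.209 and 0.216. With the 12 CL arrays alone, 61 probe sets were called (0.0997%, 36 higher and 25 lower), of which 58 were also called in the 24-array fit with the same direction. With the 6 CL root arrays alone, limma called 3 (0.0049%), all higher and all among the 1246, while 3660 had an unadjusted p under 0.05. The 12-array and 6-array fits have 8 and 4 residual degrees of freedom, and the part of these and of the spread in the lower counts was not tested.

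Stressed replicate 1 stood apart from the other CL root arrays. GEO lists its tissue as shoot, against a root title and a root description. Its correlation with the other 5 CL root arrays over all probe sets was 0.893 to 0.931, whereas the 10 pairs among those 5 arrays lay between 0.942 and 0.977. It was the highest or the lowest of the 6 arrays at 54.7% of probe sets, against 21.9% to 40.8% for the others, the last value being control replicate 2. The first principal component of the 6 arrays held 49.0% of the variance, and 76.3% of its squared loading lay on stressed replicate 1. The second held 24.01%, and 72.4% of its squared loading lay on control replicate 2.

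The shoot markers put stressed replicate 1 with the roots. Over 8 probe sets of 5 photosynthesis genes (PsbO and PsbP of photosystem II, the cytochrome complex protein petC, and the Calvin cycle enzymes PRK and FBP), the mean level was 1.84 in this array, 1.32 to 1.67 in the other CL root arrays and 6.06 to 6.997 in the 6 CL shoot arrays. PsbO read 2.05 in it, inside the range of 1.87 to 2.71 over the CL root arrays and far below the shoot range of 8.59 to 9.79. PRK read 0.85 in it, where CL shoots read 7.67 to 8.85. It had the highest value of the 6 root arrays for both PsbP probe sets, at 3.02 and 2.86, where shoots read at least 6.27, and for both petC probe sets. For 2 of the 8 probe sets, 1 each of FBP and petC, shoots read no higher than 1.19. The root markers that the array annotates did not define roots on this scale: the 3 probe sets of DMAS1, an enzyme of iron-chelator synthesis in grass roots, read 0.42 to 1.83 in CL roots and 0.58 to 2.54 in CL shoots.

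**Figure D1:**
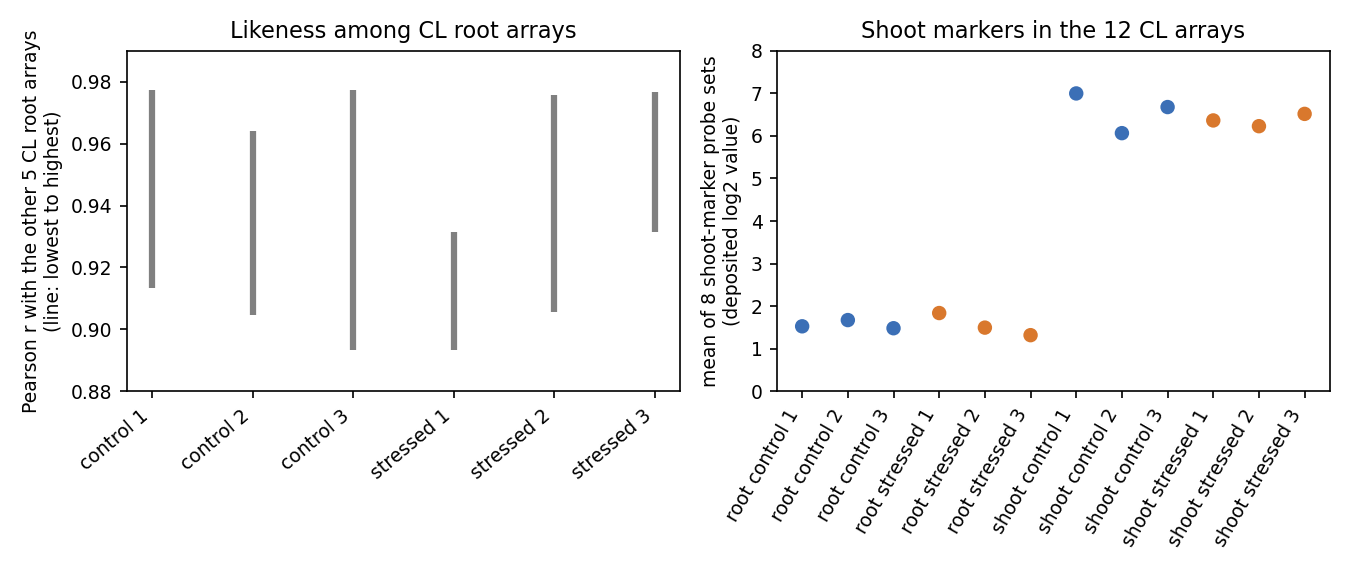
Left, for each CL root array, the lowest to the highest Pearson correlation with the other 5 CL root arrays over 61179 probe sets. Right, the mean deposited log2 value of 8 shoot-marker probe sets in each of the 12 CL arrays (blue control, orange stressed). Stressed replicate 1 has its highest correlation at 0.931, and its marker mean of 1.84 lies with the roots and not with the shoots at 6.06 and above.

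Of the signs of array quality, the 3′ to 5′ differences varied less among the 6 root arrays than the spike and 18S rRNA readings did. The difference between the 3′ and 5′ probe sets of the sucrose synthase control was 4.59 to 5.22 log2 units and that of the glucose-6-phosphate dehydrogenase control was 1.34 to 1.73, with stressed replicate 1 at 4.76 and 1.70. Control replicate 2 had the highest mean of the bioB hybridization spikes, 9.44 against 8.43 to 8.89 in the other 5 arrays. Stressed replicate 2 had the lowest 18S rRNA reading, 7.79 against 9.27 to 9.77. The part of these values in the results was not tested.

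All CL arrays are on their own scale. The medians of the 6 CL root arrays lay between 1.18 and 1.25, while those of the other 18 root arrays lay between 4.37 and 5.38. Probe sets that averaged 3 to 4 in the other roots had a CL root median of 0.87, those at 5 to 6 had 1.49, those at 8 to 9 had 3.78 and those at 11 to 12 had 7.17. CL levels thus changed little with level at the low end and by about as much as the other roots' levels at the high end. A difference of a dim probe set may be understated on the CL scale, which was not tested for single probe sets. Fold values below are those of the deposited scale. The median difference between stressed and control CL roots over all probe sets was -0.02. With the 6 array medians set this close by the authors' normalization, a shift common to all probe sets could not be seen.

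Low-nitrogen calls in CL roots were more frequent among bright probe sets and were mostly moderate in size. Of the 11802 probe sets with a mean of at least 3 over the CL root arrays, 964 were called. Of the 49377 with a mean under 3, 282 were called. The median size among calls was 1.04 log2 units and the smallest was 0.42. A rise of at least 1 was seen in 403 called probe sets and a fall of at least 1 in 267, and 70 rises and 32 falls reached 2. The 3 stressed and 3 control values did not overlap in 728 of the 770 called rises and in 460 of the 476 called falls. Over all probe sets tested, stressed values lay wholly above control values in 5.31% and wholly below in 6.83%. Where several probe sets of 1 cluster, meaning those that share the first part of their identifier, were called, they mostly moved together: 137 of 141 such clusters, with 381 probe sets among them, had 1 direction. Probe sets of a cluster can read the same transcripts on the same arrays, and these had already been called. Their agreement is therefore not separate support for the calls.

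**Figure D2:**
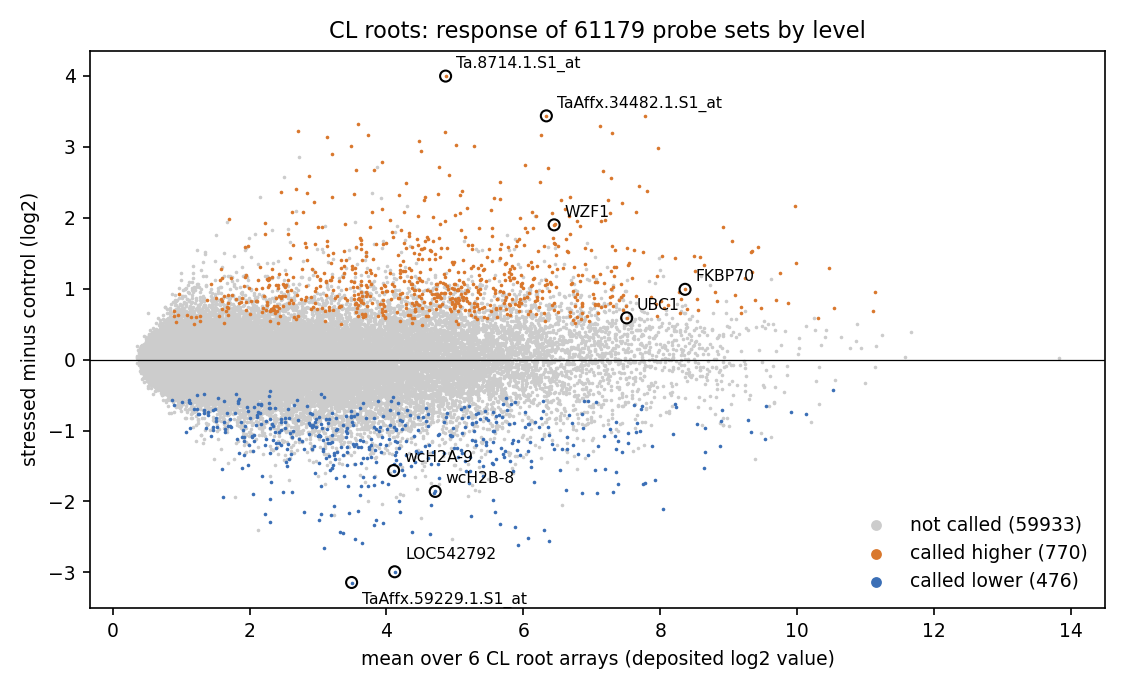
Each point is 1 of 61179 probe sets, with its mean over the 6 CL root arrays on the x axis (deposited log2 value) and stressed minus control on the y axis (log2). Orange points were called higher (770), blue points lower (476), and circles mark the genes and probe sets named in the text. The called points lie at sizes of 0.42 and above, and 964 of the 1246 have a mean of at least 3.

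Stressed replicate 1 and control replicate 2 held many of the extreme values behind these calls. Stressed replicate 1 was the highest of the 3 stressed arrays in 425 of the 770 called rises and the lowest in 352 of the 476 called falls. Control replicate 2 was the lowest of the 3 control arrays in 544 of the called rises. Without stressed replicate 1, 953 probe sets were called, 740 higher and 213 lower, and 650 of these had been called the same way with it (459 rises and 191 falls). Without control replicate 2 the count fell to 632 (341 higher, 291 lower), and without stressed replicate 2 it rose to 3121 (1423 higher, 1698 lower). Quantile normalization over the 24 root arrays gave 4512 calls, 2311 higher and 2201 lower, where the deposited scale gave 770 and 476. The methods' t-test on the 6 arrays, at p of at most 0.1, passed 6422 probe sets (10.5% of those tested, 2842 higher and 3580 lower). After Benjamini-Hochberg adjustment it passed 0, with a smallest adjusted p of 0.265, and 3082 had an unadjusted p under 0.05.

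Core histones held 7 of the 10 calls among informatively named probe sets of CL roots. All 18 probe sets of the 5 annotated histone genes, wcH2A-2, wcH2A-3 and wcH2A-9 of the H2A family and wcH2B-6 and wcH2B-8 of the H2B family, had lower means under low nitrogen, and 7 of the 18 were called lower, where 0.778% of all probe sets were. Of the 18, 11 had a mean of at least 3 over the CL root arrays. At that level 334 of 11802 probe sets were called lower. In 11 of the 18 the stressed values lay wholly below the control values, as they did in 6.83% of all probe sets. Several of the 18 read the same gene on the same arrays, so they are not separate trials, and that share was not matched for level. The list's median difference was -1.13, against -0.02 over all probe sets. Its median level by array was 3.91, 3.69 and 4.70 in control replicates 1 to 3 and 1.93, 2.71 and 3.42 in stressed replicates 1 to 3, so the array that stood apart was also the lowest. Without it the median difference was -0.96 and 3 of the 18 were called. None of the 18 passed with the 12 CL arrays or with the 6 CL root arrays, with smallest adjusted p-values of 0.153 and 0.378. Under each of 3 other scalings (quantile over 24 or over 6 arrays, and centring on the array median) the list's median stayed between -1.21 and -1.12.

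For the H2B gene wcH2B-8 the rule for naming gave Ta.7378.35.S1_x_at, at 5.12, 5.60 and 6.21 in the control arrays and 3.28, 3.92 and 4.15 in the stressed arrays. All stressed values lay below all control values. The mean fell from 5.64 ± 0.543 to 3.78 ± 0.447 (SD, n = 3), a difference of -1.86 ± 0.304 (SE) with a limma adjusted p of 0.00315. The adjusted p was 0.321 with the 12 CL arrays, 0.378 with the 6 CL root arrays and 0.0149 without stressed replicate 1. Of its other 6 probe sets, Ta.7378.18.S1_x_at (-1.63, adjusted p = 0.0139) and Ta.7378.21.S1_at (-1.41, adjusted p = 0.0483) were called too. When each CL root array was left out in turn, the first lost its call in 2 of 6 fits, with 0.0608 without stressed replicate 1, and the second in 5 of 6. The remaining 4 had differences of -0.12 to -1.28, and 3 of them were dim, with no value above 1.99.

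The H2A gene wcH2A-9 had 6 probe sets, and in every one the stressed values lay wholly below the control values. Over all probe sets that share was 6.83%. The 6 belong to 1 cluster and were read on the same arrays, so they are not separate trials, and the share was not matched for level. The naming rule gave Ta.27657.12.S1_at, at 4.39, 5.04 and 5.23 in the control arrays and 3.52, 2.52 and 3.93 in the stressed arrays. Here the lowest stressed array was replicate 2, not the one that stood apart. The mean went from 4.89 ± 0.443 to 3.32 ± 0.728 (SD, n = 3), a difference of -1.56 ± 0.316 (SE) with a limma adjusted p of 0.0127. That adjusted p was 0.362 with the 12 CL arrays, 0.589 with the 6 and 0.0233 without stressed replicate 1, and the call was lost in 2 of 6 fits that left out 1 array.

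The other wcH2A-9 probe sets spanned differences of -1.10 to -2.33. The widest was Ta.27657.14.S1_s_at, with control values of 4.69, 4.31 and 5.96 and stressed values of 1.67, 2.91 and 3.39 (adjusted p = 0.00775). Ta.27657.1.S1_at (-1.30, adjusted p = 0.027) and Ta.27657.14.S1_x_at (-1.47, adjusted p = 0.0383) were called as well, and lost their calls in 2 and 3 of 6 fits that left out 1 array. The brightest, Ta.27657.6.S1_x_at, did not pass: it read 6.25, 6.36 and 7.32 in control arrays and 5.70, 5.10 and 5.84 in stressed arrays, with an adjusted p of 0.0956. Most of these probe sets carry the suffix x or s, which marks probes that other members of the family may share, so reads of individual histone genes are uncertain.

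No probe set of wcH2B-6, wcH2A-3 or wcH2A-2 was called. The 2 probe sets of wcH2B-6 differed by -0.48 and -0.21 (adjusted p of 0.522 and 0.83), and Ta.27192.1.S1_at of wcH2A-3 differed by -0.24 (adjusted p = 0.721). The second wcH2A-3 probe set differed by -0.91 (adjusted p = 0.245) and had its lowest value, 1.09, in stressed replicate 1. The wcH2B-6 probe set Ta.27708.1.S1_x_at read 4.77, 4.92 and 4.69 in control arrays and 4.63, 4.33 and 4.78 in stressed arrays, which overlap. The single probe set of wcH2A-2 was at or below 0.89 in all 6 arrays. The other annotated chromatin gene, the high-mobility-group protein Hmgb3, had differences of -0.47 and 0.07 in its 2 probe sets, neither called.

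**Figure D3:**
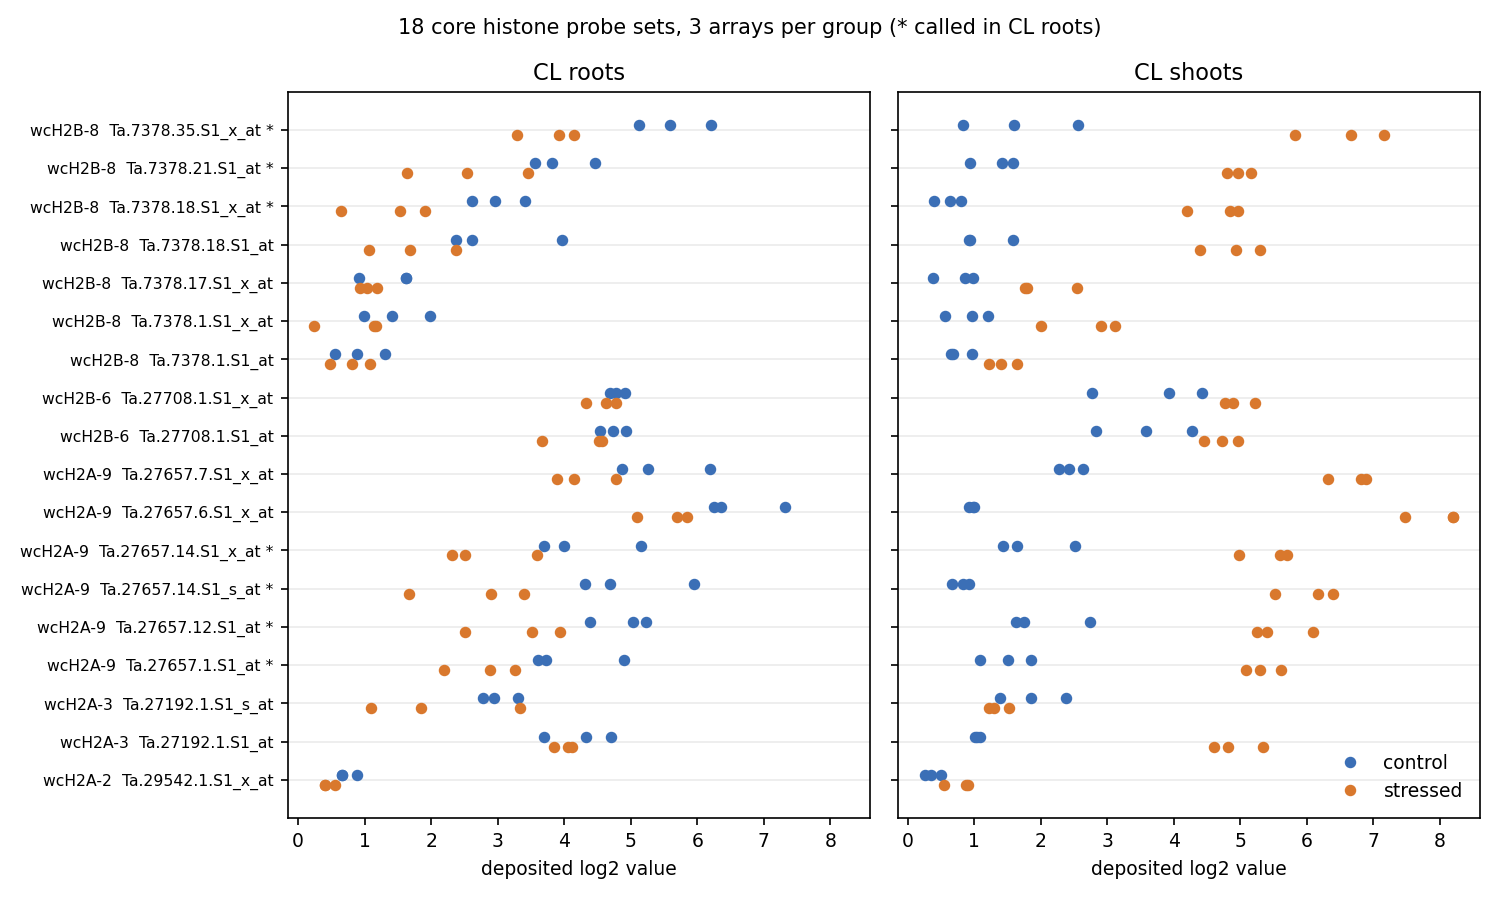
The 18 core histone probe sets, 1 per row, with the deposited log2 values of 3 control arrays (blue) and 3 stressed arrays (orange) in CL roots on the left and CL shoots on the right. Stars mark the 7 probe sets called lower in CL roots. In roots the median over the 18 is 3.69 to 4.70 in control arrays and 1.93 to 3.42 in stressed arrays, and in shoots it is 1.00 to 1.55 and 4.69 to 5.22.

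WZF1 was the named gene with the largest rise. Its probe set read 6.42, 4.83 and 5.26 in the control arrays and 7.96, 7.13 and 7.10 in the stressed arrays, with no overlap. The mean went from 5.50 ± 0.823 to 7.40 ± 0.49 (SD, n = 3), a difference of 1.90 ± 0.365 (SE), or 3.73-fold on this scale, with a limma adjusted p of 0.00928. The adjusted p was 0.35 with the 12 CL arrays, 0.518 with the 6, 0.0412 without stressed replicate 1 and 0.0579 without control replicate 2. The other annotated transcription factor, the TATA-box binding protein TBP1, differed by 0.09 (adjusted p = 0.932).

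FKBP70 was high in control roots already and nearly identical in the 3 stressed arrays. It read 8.17, 7.31 and 8.12 in the control arrays and 8.86, 8.92 and 8.80 in the stressed arrays. The gap to the control mean rests in part on control replicate 2, the lowest of the 6. The difference was 0.99 ± 0.209 (SE) with a limma adjusted p of 0.017, which was 0.266 in the 12 CL arrays and 0.568 in the 6. Without control replicate 2 it was 0.71 with an adjusted p of 0.0811. The small heat shock protein hsp16.9A, the other member of its list, stayed at or below 0.80 in all arrays.

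UBC1 rose by the least of the named genes called. Its probe set Ta.2711.1.S1_x_at read 7.32, 7.03 and 7.29 in the control arrays and 7.84, 7.76 and 7.81 in the stressed arrays, a difference of 0.59 ± 0.135 (SE) with a limma adjusted p of 0.0279. The adjusted p was 0.445 with the 12 CL arrays and 0.509 with the 6, and between 0.0666 and 0.126 without stressed replicate 1, stressed replicate 3 or control replicate 2. Its other 2 probe sets disagreed, with differences of -0.05 and -0.13 (adjusted p of 0.968 and 0.91), so the rise was seen in 1 of 3 probe sets.

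**Figure D4:**
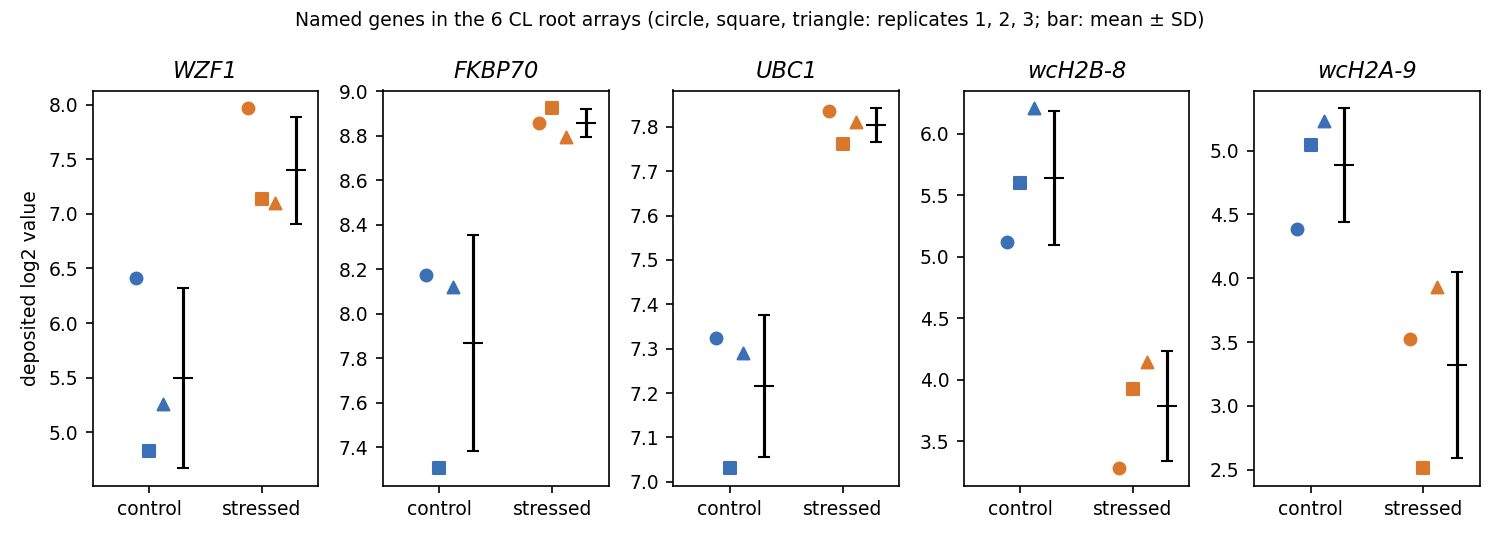
Deposited log2 values of the 5 named genes called without overlap in CL roots, with circles, squares and triangles for replicates 1, 2 and 3, and the mean ± SD (n = 3) beside them. Each panel has its own y axis. The 3 stressed values lie above the 3 control values for WZF1, FKBP70 and UBC1 and below them for wcH2B-8 and wcH2A-9.

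Beyond these 5 genes, no probe set of an informatively named gene was called in CL roots. In all, 10 of the 200 probe sets of the 102 named genes passed, 3 higher and 7 lower, which is 5%, against 2.04% of all probe sets. The median difference over the 200 was -0.05. Only 61 of the 200 had a mean of at least 3 over the CL root arrays. The size of difference that could be detected in the remainder on this compressed scale was not tested. Among all probe sets with a mean of at least 3, 964 of 11802 were called. The lists that follow were formed by gene name, and the members given are mostly among those with the smallest p.

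The cytoskeleton list, with 5 beta tubulins, the alpha tubulin TUBA and the actin-binding profilin PRO1, had 11 of its 12 probe sets lower and none called, with a median of -0.43. For the beta tubulin Tubb5 the difference lay in 1 array. Its probe set Ta.214.1.S1_at read 4.87, 5.07 and 5.04 in control arrays and 1.83, 4.55 and 4.64 in stressed arrays, the first of these being the array that stood apart. The difference was -1.32 (adjusted p = 0.166), and -0.40 without that array. PRO1 differed by -0.50 (adjusted p = 0.154), tubb3 by -0.75 (adjusted p = 0.181) and TUBA by -0.36 (Ta.812.1.S1_x_at, adjusted p = 0.18).

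Among enzymes of the methyl cycle and of purine salvage (6 probe sets, median -0.37, none called), SAHH was the brightest. SAHH, which breaks down the S-adenosylhomocysteine left by methyl transfer, read 10.34, 9.68 and 10.23 in control arrays and 7.35, 9.84 and 8.86 in stressed arrays (Ta.1258.2.S1_x_at). The groups overlapped, and the difference of -1.40 had a limma adjusted p of 0.0931. Without stressed replicate 1 it was -0.73 with an adjusted p of 0.324. PEAMT1, a methyltransferase on the way to choline, differed by -1.15 (adjusted p = 0.204). AdSS and APRT, of purine synthesis and salvage, differed by 0.38 and 0.29, and PIMT, a protein repair methyltransferase, by 0.41, none of them called.

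Translation genes were mostly bright and did not pass. Of 10 probe sets, 8 were above 0, with a median of 0.18 and none called. TCTP, a growth-linked translation protein, was the brightest at 11.74, 11.15 and 11.52 in control arrays and 11.98, 11.88 and 11.68 in stressed arrays, with a difference of 0.38 (adjusted p = 0.185). The cap-binding factor eIF4E-1 differed by 0.51 (adjusted p = 0.15). The ribosomal protein gene RPS29 read 5.75, 5.33 and 5.19 in control arrays and 6.996, 5.39 and 6.31 in stressed arrays (Ta.24254.3.S1_x_at), a difference of 0.81 (adjusted p = 0.301) with overlapping groups. The elongation factor TEF1 differed by 0.16 and 0.46.

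Of the 5 transporter probe sets (median -0.02) none was called. The 3 probe sets of the plasma membrane proton pump ha1 read between 8.26 and 9.13 in the 6 arrays and differed by -0.05, -0.02 and 0.35. TaALMT1, the malate channel of aluminium-tolerant roots, read 0.92, 0.97 and 1.26 in control arrays and 2.06, 1.18 and 2.59 in stressed arrays, a difference of 0.90 with an adjusted p of 0.439. The cation channel TPC1 differed by -0.12. In the cell wall list, the lignin enzyme COMT1 differed by -0.22 and the xyloglucan-modifying enzyme XTH by -0.52, neither called.

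Carbon and storage genes were dim in CL roots and none was called. In the list of starch, sucrose and fructan genes, with 10 probe sets and a median of -0.14, only 1-FEHw2 was bright. This fructan exohydrolase read 5.10, 4.68 and 5.33 in control arrays and 4.65, 6.02 and 5.73 in stressed arrays, a difference of 0.43 (adjusted p = 0.505). Here the array that stood apart was the lowest of the 6, and without it the difference was 0.84 with a limma adjusted p of 0.0181. The beta-amylase BMY1 differed by -0.51 and the invertase IVR1 by -0.15. The glycolysis list (Pgk-1, GAPN and PFK) had differences of -0.05 to 0.23.

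Defence, redox and stress-protein lists held no call either. Of 18 defence probe sets, 12 were below 0, with a median of -0.14. The xylanase inhibitor XIP-I read 6.89, 7.08 and 7.53 in control arrays and 5.83, 7.17 and 6.19 in stressed arrays (Ta.1200.1.S1_x_at), a difference of -0.77 (adjusted p = 0.241). The cysteine protease inhibitor cys1 differed by -0.56 (adjusted p = 0.42) and the lipid transfer protein LTP3 by 0.66, with 2.43 in stressed replicate 1 and no other value above 0.76. The beta-glucosidase GLU1A and the lectin WGA2, picked after their values were seen, had 1 high control array, replicate 3, at 6.80 and 5.06, with no value above 2.60 in the other 5 arrays, and neither was called. The redox list, 14 probe sets with a median of -0.12, was led by the peroxiredoxin PER1 at -0.73 (Ta.24688.2.S1_a_at, adjusted p = 0.177), followed by Prx1 at -0.42, the glutathione transferase GSTZ1 at 0.42 and the glyoxalase lgul at -0.31.

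Late-embryogenesis and cold-induced proteins (10 probe sets, median 0.00) were near the floor. EMH2 differed by 0.71 (adjusted p = 0.301), with 2.26 in stressed replicate 1 and at most 0.72 in the other 5 arrays, and the dehydrin COR410 differed by 0.19. The gibberellin oxidase genes GA20ox1a, GA20ox1b and GA20ox1d had differences of -0.21 to 0.27 and the metal chelation genes DMAS1 and PCS1 of -0.30 to 0.18. Photosynthesis genes (36 probe sets, median 0.04) had no call, with 25 probe sets above 0 and 11 below. PsbO differed by -0.40 (adjusted p = 0.466), where the list ran from -0.40 to 0.75 with a smallest limma adjusted p of 0.365. Of 27 grain protein probe sets none passed: the gliadin Gli-8 read 2.26, 2.50 and 2.08 in control arrays and 1.29, 1.36 and 1.75 in stressed arrays, with no overlap, a difference of -0.81 and an adjusted p of 0.0928. Among genes of other functions, 12 probe sets in all, the largest difference was -0.39.

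Some calls fell on genes that the annotation gives only by a gene ID. Of 1073 such probe sets, 44 were called higher and 19 lower, where 1.26% and 0.778% of all probe sets were. Those shares were not matched for level, and calls were more frequent among bright probe sets. No role is given to these genes here. The 7 genes in which at least 2 probe sets were called in 1 direction were picked after their values were seen. LOC542846 rose in both of its probe sets: Ta.261.1.S1_at read 6.36, 5.61 and 5.13 in control arrays and 10.04, 7.91 and 8.72 in stressed arrays, a difference of 3.19 ± 0.442 (SE) with a limma adjusted p of 0.000859. Its second probe set differed by 2.57 (adjusted p = 0.00196). The highest value of each was in stressed replicate 1, and without that array both were still called. With the 12 CL arrays the adjusted p-values were 0.131 and 0.277, and with the 6 CL root arrays 0.367 and 0.456.

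LOC543319 was among the brightest genes called, and its 5 probe sets all rose, by 0.65 to 0.95. The brightest read 10.97, 10.08 and 10.92 in control arrays and 11.80, 11.42 and 11.62 in stressed arrays (Ta.2502.1.S1_a_at, adjusted p = 0.00695). The smallest rise, of Ta.2502.3.A1_at, was not called in 2 of 6 fits that left out 1 array. LOC780664 rose in all 4 probe sets by 1.32 to 1.74, with Ta.5818.1.S1_a_at at 6.88, 6.42 and 6.41 in control arrays and 8.57, 7.61 and 8.14 in stressed arrays (adjusted p = 0.000817). LOC543297 rose in 2 of 4 probe sets, by 0.88 and 1.09. LOC780696 rose in both of its probe sets, by 0.99 (adjusted p = 0.0237) and 1.02 (adjusted p = 0.0297). Those calls were lost in 2 and 4 of 6 fits that left out 1 array, with 0.111 and 0.152 without control replicate 2. None of the probe sets of these 4 genes was called with the 12 CL arrays alone.

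The 3 stressed values of LOC542992 lay close together. Ta.1457.1.S1_s_at read 4.55, 3.92 and 4.79 in control arrays and 6.28, 6.30 and 6.27 in stressed arrays, a difference of 1.86 ± 0.285 (SE) with a limma adjusted p of 0.00178 in the 24-array fit, 0.0302 in the 12 CL arrays and 0.215 in the 6. Ta.1457.1.S1_x_at of the same gene rose by 1.71, with adjusted p-values of 0.0057 and 0.0287, and another of its probe sets differed by -0.25. LOC543072 was the only gene among the 7 that fell, by 1.28 and by 1.47. Its values were 5.63, 5.72 and 5.84 in control arrays and 4.32, 4.45 and 4.58 in stressed arrays for Ta.9316.1.S1_at (adjusted p = 5.78e-05). That adjusted p was 0.156 with the 6 CL root arrays and 0.703 with the 12 CL arrays.

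The largest changes lay in probe sets with no named gene. Ta.8714.1.S1_at read 4.02, 2.66 and 1.91 in control arrays and 7.58, 6.57 and 6.44 in stressed arrays, the largest rise of all at 3.996 ± 0.531 (SE, limma adjusted p = 0.000698, with 0.0323 in the 12 CL arrays and 0.258 in the 6). TaAffx.34482.1.S1_at went from 5.16, 4.45 and 4.24 to 9.40, 7.03 and 7.74, a rise of 3.44 (adjusted p = 0.00503, with 0.0981 in the 12 CL arrays and 0.367 in the 6). Both rises were seen in each stressed array.

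Of the falls, TaAffx.59229.1.S1_at was the largest, from 4.90, 4.78 and 5.51 to 1.91, 1.43 and 2.41. The difference was -3.14 ± 0.281 (SE), with limma adjusted p-values of 1.87e-05 in the 24-array fit, 0.00278 in the 12 CL arrays and 0.113 in the 6. LOC542792, again known only by its gene ID, went from 5.76, 5.46 and 5.63 to 2.94, 2.16 and 2.77 (Ta.30336.1.S1_x_at), a difference of -2.99 with an adjusted p of 2.51e-05, with 0.116 in the 12 CL arrays and 0.0567 in the 6. In both, leaving out stressed replicate 1 left the difference at -3.14 and -3.15.

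The 3 probe sets that limma called with the 6 CL root arrays alone have no named gene and were picked after their values were seen. Ta.5633.2.S1_at read 1.81, 1.79 and 1.67 in control arrays and 4.52, 4.91 and 4.54 in stressed arrays, a rise of 2.90 ± 0.226 (SE) with adjusted p-values of 7.5e-06 (24 arrays), 0.0424 (12) and 0.0257 (6). Ta.24768.1.A1_x_at went from 2.52, 2.40 and 2.52 to 5.02, 5.397 and 5.04, a rise of 2.67 with adjusted p-values of 0.00115, 0.00683 and 0.0257. Ta.23739.1.A1_x_at went from 1.52, 1.58 and 1.65 to 3.78, 3.64 and 3.58, a rise of 2.08 with adjusted p-values of 2.43e-05, 0.00278 and 0.0266. In each, the stressed values lay above the control values by more than the range within either group.

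The CL root response was then set against the mean root response of HD2967, K9107 and K307, to ask where CL roots differed from the other genotypes. The difference of responses was called in 841 probe sets (1.37%), 530 with the CL response higher and 311 with it lower (limma, the same fit of 24 arrays). Genotype and scale cannot be told apart in this comparison, because every CL array and no other is on the compressed scale. Of the 841, 488 were also called in CL roots by themselves, which is 58.0% of the 841 and 39.2% of the 1246. In 395 of the 488 the mean of the other 3 responses had the opposite sign to CL. Being called in both comparisons favours opposite signs, so this count is not a separate result. Nor were the calls of the other genotypes alike in this fit. Of the CL root calls, 116 were called in the opposite direction in HD2967 roots, 5 in K9107 and 10 in K307. Without the fixed term for inferred sets, 119 differences of responses were called, 110 higher in CL and 9 lower. The part of that term in the responses of the other genotypes was not tested.

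Histones and WZF1 were among them. For wcH2B-8 (Ta.7378.35.S1_x_at) the response was -1.86 in CL and 0.06, 0.46 and 0.43 in HD2967, K9107 and K307, and the difference of -2.17 ± 0.357 (SE) had a limma adjusted p of 0.00397. For wcH2A-9 (Ta.27657.12.S1_at) the responses were -1.56 in CL and -0.30, 0.36 and 0.05 in the others, a difference of -1.60 ± 0.37 (SE, adjusted p = 0.0352) that did not pass under 15 of 28 alternatives. Of the 18 histone probe sets, 5 were called lower in CL in this comparison, where 0.508% of all probe sets were, a share not matched for level. The median response of the list was -1.13 in CL, 0.02 in HD2967, 0.35 in K9107 and 0.44 in K307.

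WZF1 differed by 1.90 in CL and by -1.35, 0.04 and -0.82 in the others, in the same order, and the difference of 2.61 ± 0.427 (SE) had a limma adjusted p of 0.00396. FKBP70 differed by 0.99 in CL and by -1.68, -0.02 and 0.36 in the others, a difference of 1.44 ± 0.245 (SE, adjusted p = 0.00553). UBC1 was not called, with 0.59 in CL, 0.36 in HD2967, 0.55 in K9107 and 0.37 in K307 (adjusted p = 0.769). RPS29, whose CL values overlapped between groups, was called here, with 0.81 in CL and -1.17, -0.83 and -0.72 in the others (adjusted p = 0.0359), and was lost in 13 of 28 alternatives. It is named although the rule for names did not choose it.

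Several large CL changes had the same direction in all 4 genotypes. Ta.5633.2.S1_at rose by 2.90 in CL, and its fitted responses in HD2967, K9107 and K307 were 2.10, 3.22 and 2.78 (difference 0.20, adjusted p = 0.842). Ta.24768.1.A1_x_at had responses of 2.67 in CL and 1.14, 2.33 and 2.01 in the others, and Ta.23739.1.A1_x_at of 2.08 and 1.18, 1.68 and 1.46. Their differences were not called (adjusted p of 0.484 and 0.208), which does not show that the responses were equal. TaAffx.59229.1.S1_at was lower in all 4 genotypes, at -3.14 in CL and -1.69, -1.09 and -1.88 in the others, with an adjusted p of the difference of 0.0187.

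The 2 largest unnamed rises were not shared. Ta.8714.1.S1_at had responses of 3.996 in CL and -1.64, -0.06 and -0.38 in HD2967, K9107 and K307 (difference 4.69, adjusted p = 0.000773). TaAffx.34482.1.S1_at had 3.44 in CL and -3.83, 0.13 and -0.90 in the others (difference 4.97, adjusted p = 0.0013). Over all calls, 96 of the 1246 CL root calls were also called in HD2967 roots in the same direction (7.70% of the CL calls and 4.66% of 2058 HD2967 calls), and 116 (9.31% of the CL calls) in the opposite direction. In K9107 roots, with 555 calls, 59 were shared in direction (4.74% of the CL calls and 10.6% of its own) and 5 opposed. In K307 roots, with 1219 calls, 93 were shared (7.46% and 7.63%) and 10 opposed.

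**Figure D5:**
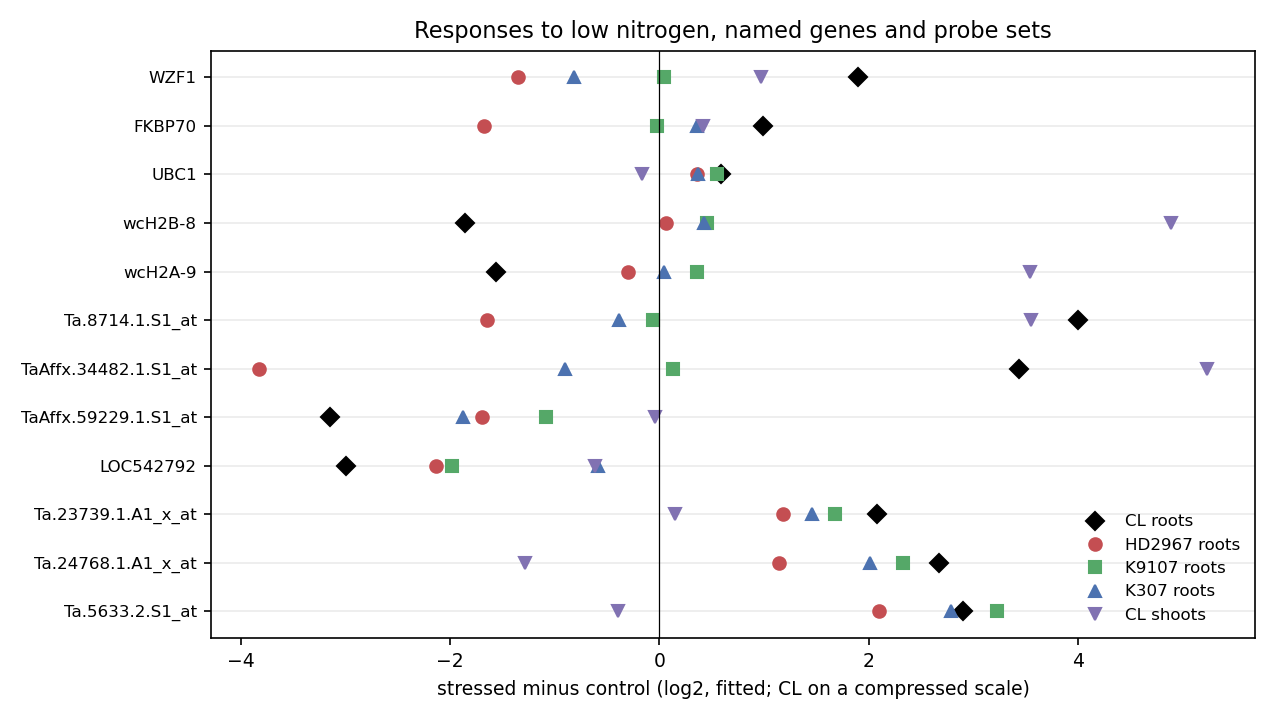
Stressed minus control (log2, fitted) of the named genes and probe sets in CL roots (black diamonds), in roots of HD2967, K9107 and K307, and in CL shoots (triangles pointing down). The CL root points lie apart from all other root groups for WZF1 at 1.90, wcH2B-8 at -1.86 and Ta.8714.1.S1_at at 3.996, and among them for Ta.5633.2.S1_at at 2.90.

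The roots and shoots of CL lie on 1 scale, and their responses were compared within the 12 CL arrays. The root response differed from the shoot response in 363 probe sets (0.593%), of which 31 (0.0507%) had the higher response in roots and 332 (0.543%) had the lower one. With the replicate number as a block within each tissue the count was 193, 8 higher and 185 lower. The 31 became 69 with array weights, 55 with quantile normalization and 17 with a level filter. They became 12 or 14 without stressed shoot replicate 1 or 2, 16 without stressed root replicate 3, and 13, 19 or 14 without control root replicate 1, 2 or 3. CL shoots by themselves had 941 calls in this fit. Of the 1246 CL root calls, 62 were also called in CL shoots in the same direction (4.98% of the root calls and 6.59% of the shoot calls) and 66 (5.30% of the root calls) in the opposite direction.

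Core histone responses of CL roots lay below those of CL shoots. In 11 of the 18 histone probe sets the root response was called lower than the shoot response, with differences of -4.11 to -8.09. In shoots wcH2B-8 (Ta.7378.35.S1_x_at) read 0.83, 2.56 and 1.60 in control arrays and 7.16, 6.66 and 5.82 in stressed arrays. The root arrays read 5.64 ± 0.543 on control nitrogen and 3.78 ± 0.447 on low nitrogen (SD, n = 3), so both root groups lay between the 2 shoot groups. The difference between the root response of -1.86 and the shoot response of 4.89 was -6.74 ± 0.668 (SE, limma adjusted p = 0.00104).

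For wcH2A-9 the control shoot values lay at the low end of the CL scale. Its probe set Ta.27657.6.S1_x_at read 0.99, 0.98 and 0.92 in control shoots and 8.20, 8.19 and 7.48 in stressed shoots. The first 3 are below the medians of their arrays, where the scale is compressed. The responses were 6.99 in shoots and -1.10 in roots (difference -8.09 ± 0.433 SE, adjusted p = 7.15e-05). The median response of the histone list was 3.61 in CL shoots and -1.13 in CL roots. For the wcH2B-8 and wcH2A-9 probe sets given here and for the list median, most of the difference thus came from the shoots. The list's median level in the control shoot arrays was 1.00 to 1.55. The tubulins TUBA (Ta.723.1.S1_at, -4.08, adjusted p = 0.0118) and Tubb5 (Ta.214.2.A1_at, -3.40, adjusted p = 0.0129) were called in the same direction, although the root responses of -0.22 and -0.64 were not called. With the replicate block the adjusted p was 0.0388 for TUBA and 0.131 for Tubb5, so the Tubb5 call was lost. These tubulins are named although the rule for names did not choose them.

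The 3 probe sets called with the 6 CL root arrays alone were among the 31 with the higher root response. Their responses in CL shoots were 0.15 for Ta.23739.1.A1_x_at, -1.29 for Ta.24768.1.A1_x_at and -0.40 for Ta.5633.2.S1_at, and the adjusted p-values of the differences were 0.004, 0.000633 and 0.0428. The last did not pass when any of 9 of the 12 arrays was left out, nor with the replicate block (adjusted p = 0.165). By contrast, WZF1 (shoot response 0.97), FKBP70 (0.42) and UBC1 (-0.17) gave no call for the difference between tissues, with adjusted p-values of 0.684, 0.625 and 0.361. Ta.8714.1.S1_at rose in both tissues, by 3.996 in roots and 3.56 in shoots, and TaAffx.34482.1.S1_at had a root response of 3.44 and a shoot response of 5.24.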

How the data were processed

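Each deposited value is a log2 intensity of 1 probe set, deposited by the authors after RMA, a step named in the submitters' processing notes. The table holds 61290 probe sets, of which 111 controls were left out. The sources do not state the RMA settings or the arrays it ran over. Gaps of over 0.1 between array medians part the series into 4 normalization sets, 1 of which holds all CL arrays. Arrays were grouped by title. Differences were fitted with limma 3.58.1 (R 4.3.3; two-sided) on 24 root arrays of 8 groups with the set as a fixed term, or on the 12 CL arrays for root against shoot. Benjamini-Hochberg adjustment covered all 61179 probe sets, at 0.05. Fits on 12 and 6 CL arrays are given too. The code was tested on simulated data. The annotation pairs 1273 probe sets with 771 genes, 770 of them listed in IWGSC CS RefSeq v2.1, and 102 genes (200 probe sets) have an informative name. Named were called probe sets of these genes whose stressed and control CL root values did not overlap, 1 per gene. The limit was 12 each way (6 for differences of responses). Also named were up to 4 of the smallest p of each list, and the 2 largest rises and falls elsewhere. The members and lists were chosen with earlier results of these data known. Alternatives were other scalings, array weights, a level filter at 3, the replicate block, the methods' t-test and leaving out each array. Same-numbered CL root arrays did not deviate together (correlations -0.14, -0.31 and 0.04), while CL shoot arrays did (0.23, 0.14 and 0.11), a pairing read from the data. The number of arrays, 3 per group, limits the precision.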

Additional observations from a re-analysis of the deposited data

Results flagged for a closer look

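Some responses of CL roots differed from the mean response of HD2967, K9107 and K307 by a limma test of the difference itself. The CL response was higher for WZF1 by 2.61, for FKBP70 by 1.44, for RPS29 by 1.72, for Ta.8714.1.S1_at by 4.69 and for TaAffx.34482.1.S1_at by 4.97 log2 units. It was lower for wcH2B-8, with differences of -2.17 (Ta.7378.35.S1_x_at) and -1.84 (Ta.7378.18.S1_x_at). For wcH2A-9 the differences were -1.60 (Ta.27657.12.S1_at), -1.58 (Ta.27657.1.S1_at) and -2.64 (Ta.27657.14.S1_s_at). For TaAffx.59229.1.S1_at the difference was -1.59 and for LOC542792 it was -1.43. When each of the 24 root arrays was left out in turn, the call was lost in 14 fits for LOC542792, in 12 for Ta.27657.12.S1_at, in 11 for RPS29, in 4 for Ta.27657.1.S1_at, in 3 for Ta.7378.18.S1_x_at and in 1 for TaAffx.59229.1.S1_at.

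Responses of CL roots also differed from those of CL shoots. For wcH2B-8 the root minus shoot differences were -6.74, -5.01, -5.69 and -5.06 over 4 probe sets. For wcH2A-9 they were -5.11, -5.15, -7.54, -5.04, -8.09 and -5.40 over 6 probe sets, and for wcH2A-3 the difference was -4.11. The tubulin differences were -4.08 for TUBA and -3.40 and -3.67 for Tubb5. Both Tubb5 calls were lost with the replicate number as a block, and that of Ta.214.2.A1_x_at also in 6 of 12 fits that left out 1 array. TaAffx.59229.1.S1_at differed by -3.10, with a root response of -3.14 and a shoot response of -0.04. The response was higher in roots for Ta.23739.1.A1_x_at by 1.93, for Ta.24768.1.A1_x_at by 3.96 and for Ta.5633.2.S1_at by 3.30, the last lost in 9 of 12 such fits and with the block. Groups of 3 arrays were not searched systematically for single outlying arrays, and those described above were seen in the values given.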

How the results depend on the processing

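The number of calls in CL roots, 1246 in the 24-array limma fit, differed between settings. It was 61 with 12 CL arrays, 3 with 6 (3660 at an unadjusted p under 0.05), 109 with no set term, 2744 with array weights, which gave stressed replicate 1 a weight of 0.154, and 4512 after quantile normalization over 24 arrays. The methods' t-test gave 6422 unadjusted and 0 after adjustment. The replicate block gave 2084 within CL roots and 0 with 6 arrays alone, where the numbers did not pair the arrays. Leaving out each CL root array gave 632 (without control replicate 2) to 3121 (without stressed replicate 2). Alternatives chosen after seeing the data gave 16 with 12 CL arrays without stressed replicate 1, and 498 with 24 arrays without stressed replicate 1 and control replicate 2. Against the other genotypes, 841 calls (530 higher, 311 lower) became 119 with no set term (110 higher, 9 lower). With array weights they became 2282 and with the replicate block 500. When 1 array was left out they became 485 (without control replicate 3) to 2504 (without stressed replicate 2). Against CL shoots, 363 became 232 with a level filter over the 12 arrays, 193 with the replicate block and 246 to 436 when 1 array was left out. The cause of these changes was not tested. Dim probe sets on the compressed CL scale may limit what could be detected, and 282 of the 1246 calls had a mean under 3.

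Of 129 recomputed differences of single probe sets, 19 changed sign under at least 1 alternative, and none of these was called as reported or under that alternative. The largest of the 19 as reported was 0.44 in size. With array weights the log2 difference was 0.048 for PFK, 0.031 for GAG56D, -0.061 for GA20ox1b, 0.21 for Rab15, -0.015 for DMAS1 (Ta.5335.1.A1_at), -0.19 for raftin1b, 0.060 for ha1, 0.23 for UBC1 (TaAffx.53697.1.S1_x_at) and 0.24 for UBC1 (TaAffx.51048.1.S1_at). With arrays centred on the median it was 0.0032 for DMAS1 (Ta.5335.1.A1_x_at). With 24 arrays without stressed replicate 1 and control replicate 2 it was -0.099 for GAPN, 0.095 for PFK, -0.19 for GA20ox1b, 0.088 for Rab15, -0.062 for DMAS1 (Ta.5335.1.A1_at), -0.20 for raftin1b, 0.0019 for lgul, 0.085 for ha1, 0.092 for UBC1 (TaAffx.53697.1.S1_x_at) and 0.27 for UBC1 (TaAffx.51048.1.S1_at). With 12 CL arrays without stressed replicate 1 it was -0.18 for GA20ox1b, 0.015 for Rab15, -0.093 for DMAS1 (Ta.5335.1.A1_at), -0.14 for raftin1b, 0.061 for ha1 and 0.25 for UBC1 (TaAffx.51048.1.S1_at). With 1 CL root array left out it ranged from -0.093 to 0.36 for DMAS1 (Ta.5335.1.A1_at), -0.25 to 0.18 for DMAS1 (Ta.5335.1.A1_x_at), -0.079 to 0.035 for GA20ox1a, -0.18 to 0.54 for GA20ox1b, -0.43 to 0.019 for GA20ox1d, -0.10 to 0.40 for GAPN, -0.14 to 0.28 for Hmgb3 and -0.13 to 0.26 for PCS1. In the same fits it ranged from -0.14 to 0.063 for PFK, -0.21 to 0.015 for Rab15, -0.090 to 0.43 for TBP1, -0.43 to 0.065 for TPC1, -0.083 to 0.62 for TSA, -0.21 to 0.25 for UBC1 (TaAffx.51048.1.S1_at), -0.41 to 0.067 for UBC1 (TaAffx.53697.1.S1_x_at), -0.10 to 0.061 for ha1 and -0.14 to 0.53 for raftin1b.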
